A study of Mus musculus with 3 samples.

Results

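The genes described here are the oxygen-sensing machinery of cultured mouse tendon cells: the hypoxia-inducible factor (HIF) subunits Hif1a, Epas1, Hif3a and Arnt, the HIF hydroxylases Egln1, Egln2, Egln3 and Hif1an, and the ubiquitin ligase subunit Vhl. They were taken as a fixed set of 9 genes, matched by Entrez gene ID, out of 16621 gene IDs listed in at least 1 library. The set was put together with the difference between mutant and wild-type libraries already known, so the members' levels and ratios are given as a description and without a test. Of the 9, 8 passed the filter on low counts that was used for the other genes, and Hif3a did not.

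The cells were tail tendon derived stem cells, which are progenitors grown out of tendon, from C57BL/6 mice with a stated age of 10 weeks. One group was wild type (WT, 1 library). The other carried the ΔF508 mutation of Cftr, the anion channel gene mutated in cystic fibrosis (DF508, 2 libraries, here replicates 1 and 2). All cells were untreated, grown in low glucose medium with serum, and harvested at confluence at passage 4 for poly(A) RNA sequencing. The sources used here give no oxygen level for the culture, and no label states that the DF508 pair came from separate animals, so the spread between them may be technical.

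As background, HIF is a transcription factor made of an oxygen-labile alpha subunit and the stable beta subunit Arnt. In oxygen, the Egln enzymes hydroxylate a proline in the alpha subunit, Vhl binds the hydroxylated site, and the protein is ubiquitinated and degraded. Hif1an hydroxylates an asparagine in the alpha subunit and thereby blocks coactivator binding. This control acts on the protein, which RNA sequencing does not measure. Tendon is a sparsely vascularised tissue, and HIF is known as the activator of genes of glycolysis and vessel growth.

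The sites that the Egln enzymes hydroxylate and Vhl then binds in the alpha subunits are encoded as follows, shown because they link these members. Each line gives 60 coding bases, 5′ to 3′, around the codon of the hydroxylated proline, which is in capitals; the sequences were found by a search of the coding frames for the pattern leucine, any 2 residues, leucine, alanine, proline. They are GENCODE M21 transcripts on GRCm38, and each lies within a single coding exon. Hif1a and Epas1 have 2 such sites and Hif3a has 1.
Hif1a, codon 402, exon 9, chr12:73939674-73939733, plus strand: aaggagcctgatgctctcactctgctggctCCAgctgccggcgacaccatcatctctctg
Epas1, codon 405, exon 9, chr17:86824555-86824614, plus strand: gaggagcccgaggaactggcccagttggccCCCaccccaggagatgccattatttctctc
Hif1a, codon 577, exon 12, chr12:73941961-73942020, plus strand: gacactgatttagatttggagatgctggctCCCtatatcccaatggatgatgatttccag
Epas1, codon 530, exon 12, chr17:86827498-86827557, plus strand: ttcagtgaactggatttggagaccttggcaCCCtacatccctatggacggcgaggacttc
Hif3a, codon 489 of its longer transcript, exon 12, chr7:17041178-17041237, minus strand: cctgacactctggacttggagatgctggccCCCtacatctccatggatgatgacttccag
The Hif1a and Epas1 stretches were identical at 38 of 60 bases (63.3%) for the first site and at 39 of 60 (65%) for the second. The Hif3a stretch was identical to the second site of Hif1a at 44 of 60 bases (73.3%) and to that of Epas1 at 35 (58.3%). The first and second sites within Hif1a were identical at 20 of 60 bases (33.3%), so the corresponding sites of different genes resembled each other more than sites within a gene.

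Levels between genes were compared in FPKM (fragments divided by gene length and by library size, as deposited), which corrects for length. In WT the order was Hif1a at 128 FPKM, Epas1 at 51.0, Arnt at 26.4, Egln2 at 18.6, Egln1 at 16.1, Vhl at 7.32, Hif1an at 4.81, Egln3 at 3.01 and Hif3a at 0. Hif1a stood within the top 2.83% of listed genes in WT, and Epas1 within the top 7.96%. In the DF508 libraries Hif1a also ranked first, at 96.5 and 96.1 FPKM. Epas1 (21.8 and 24.0 FPKM) and Arnt (25.8 and 23.3 FPKM) overlapped there, so their order was not resolved. All other neighbours in the order were separated by more than the spread of the DF508 pair, with Egln2 above Egln1, then Vhl, Hif1an, Egln3 and Hif3a.

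**Figure D1:**
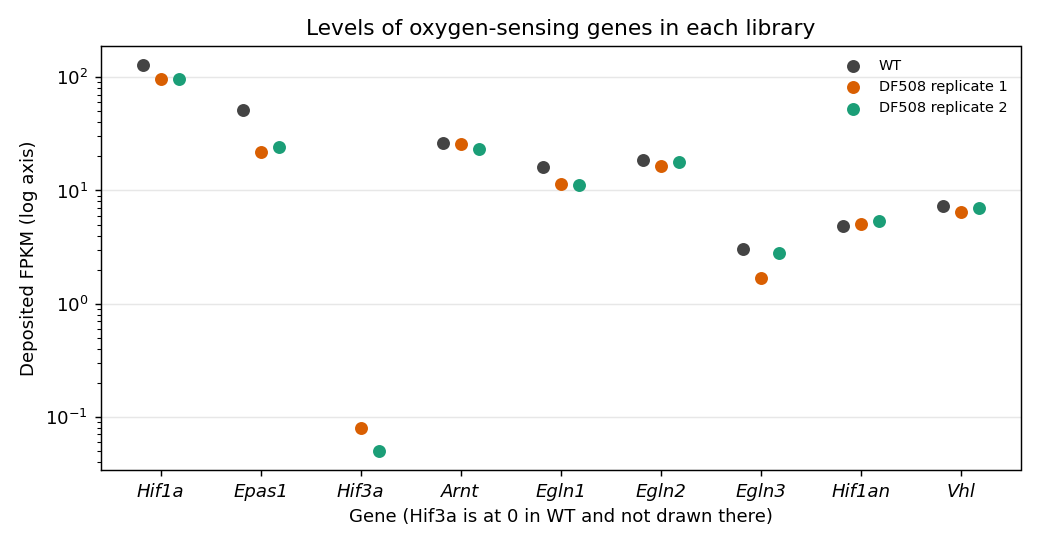
Deposited FPKM of each gene on a log axis, with 1 point per library (WT, DF508 replicate 1, DF508 replicate 2); Hif3a is at 0 in WT and has no point there. Epas1 is at 51.0 FPKM in WT and at 21.8 and 24.0 in DF508, where it reaches the level of Arnt.

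Epas1 (gene ID 13819) encodes HIF-2 alpha, the alpha subunit best known from endothelium and from the control of erythropoietin and iron uptake. Its estimated counts were 1458 in WT and 617 and 678 in the DF508 libraries, replicate 1 first, or 275, 118 and 129 CPM (the count scaled to the library total). Both DF508 libraries lay far below WT and close to each other. The mean in DF508 was 123 ± 8.19 CPM (SD, n = 2), which is 44.9% of WT or 2.23-fold lower, with an exact 95% counting interval of 0.416 to 0.484 for the ratio. Replicate 1 had 0.428 and replicate 2 had 0.47 of the WT level, while the ratio of replicate 2 to replicate 1 was 1.1 (0.983 to 1.23). The counting intervals here and below are Clopper-Pearson intervals on rounded counts; they hold counting error only and not the variation between cultures. Among 10951 genes that averaged 5 CPM or more and had counts in every library, 11 were as low as Epas1 or lower in both DF508 libraries relative to WT. Epas1 has a fractional estimate in each library, so some of its reads are shared with another gene or copy and its level is to that extent uncertain.

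Hif1a (gene ID 15251), which encodes HIF-1 alpha, the broadly expressed regulator of glycolytic genes, had 3254 counts in WT and 2432 and 2425 in the DF508 libraries. These were 614 CPM in WT and 464 and 462 CPM in DF508. The DF508 libraries were nearly equal to each other, with a ratio of 0.996 (0.941 to 1.05), and both lay below WT. Their mean of 463 ± 1.26 CPM was 75.4% of WT (counting interval of the ratio 0.721 to 0.788). The ratio to WT was thus lower for Epas1 than for Hif1a, and their counting intervals did not overlap.

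Because both genes were lower but to unequal extents, the make-up of the alpha subunit transcripts differed between libraries. Hif1a exceeded Epas1 by 2.5-fold in FPKM in WT, by 4.42-fold in DF508 replicate 1 and by 4.01-fold in replicate 2. Epas1 made up 28.5% of summed alpha subunit FPKM in WT and 18.4% and 19.9% in the DF508 libraries. These ratios are taken within a library and do not depend on how libraries are scaled to each other.

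**Figure D2:**
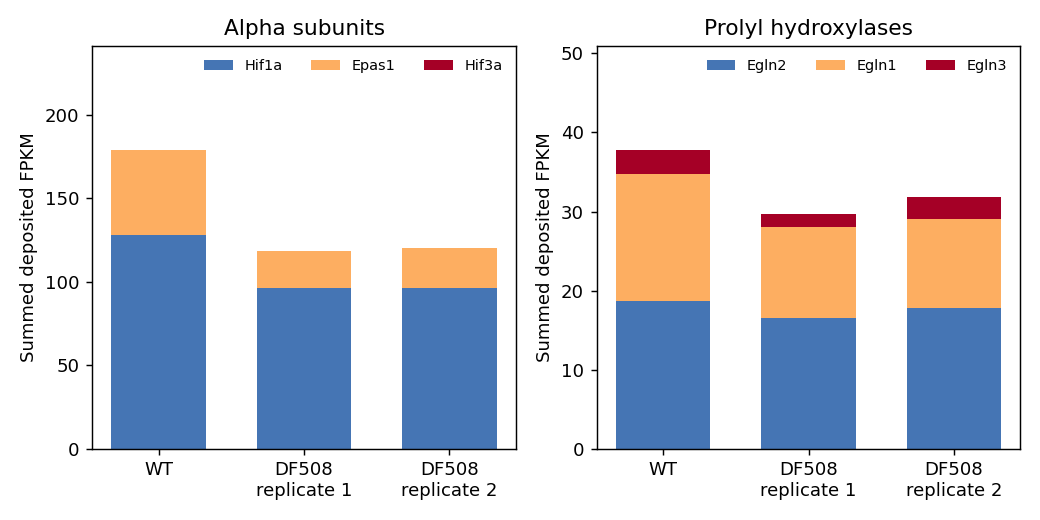
Stacked bars of deposited FPKM in each library (x axis), on the left for the alpha subunits Hif1a, Epas1 and Hif3a and on the right for the prolyl hydroxylases Egln2, Egln1 and Egln3. The alpha subunit sum is 179 FPKM in WT and 118 and 120 in DF508, with a smaller Epas1 share in DF508; the Hif3a segment is too small to be seen.

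Hif3a (gene ID 53417), whose product has isoforms that restrain the other alpha subunits, was barely detected, with 0 counts in WT and 3 and 2 counts in DF508. With 0 counts a level of up to 3 counts remains possible, which is 0.566 CPM in WT, so no difference was detectable at this depth and no ratio is given. The sum of alpha subunit transcripts was therefore made of Hif1a and Epas1. It was 179 FPKM in WT and 118 and 120 FPKM in the DF508 libraries.

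The beta subunit gene Arnt (gene ID 11863), the shared partner of all alpha subunits, had 614, 594 and 536 counts in WT and DF508 replicates 1 and 2. Its CPM values of 116, 113 and 102 put replicate 1 next to WT and replicate 2 lower, with a mean of 108 ± 7.93 CPM in DF508. The ratio to WT was 0.93, and the counting interval of 0.842 to 1.03 includes 1. Arnt also has a fractional estimate in 1 library and shares some reads. Summed alpha subunit FPKM exceeded that of Arnt by 6.78-fold in WT and by 4.59-fold and 5.16-fold in DF508.

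Among the prolyl hydroxylases, Egln1 was lower in both DF508 libraries, Egln2 differed little, and Egln3 was split between them. Egln1 (gene ID 112405) encodes PHD2, regarded as the main oxygen sensor of the family. It had 302 counts in WT and 213 and 208 in DF508, or 57.0, 40.6 and 39.6 CPM. The DF508 pair agreed within counting noise (ratio 0.976, 0.802 to 1.19) and lay below WT, with a mean of 40.1 ± 0.702 CPM. This was 70.4% of WT, with a counting interval of 0.606 to 0.819 for the ratio.

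Egln2 (gene ID 112406), which encodes PHD1, had 209, 183 and 198 counts in WT and DF508 replicates 1 and 2. At 39.4, 34.9 and 37.7 CPM the libraries lay close together, and the ratio of 0.921 had a counting interval of 0.776 to 1.1. In FPKM the Egln2 to Egln1 ratio was 1.16 in WT and 1.44 and 1.59 in DF508. The interval for Egln2 overlaps that for Egln1 (0.606 to 0.819). Overlap alone does not decide whether their ratios to WT differ, and that difference was not tested. Egln2 was the most abundant of the family in each library, and its share of summed Egln FPKM was 49.3% in WT and 55.6% and 55.9% in DF508.

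Egln3 (gene ID 112407) encodes PHD3, whose gene is itself a well known HIF target. It had 43 counts in WT, 24 in DF508 replicate 1 and 40 in replicate 2, or 8.12, 4.58 and 7.62 CPM. Replicate 1 was low and replicate 2 was near WT, so the DF508 pair was spread about as widely as replicate 1 differed from WT. The ratio of the DF508 mean to WT was 0.752 (0.503 to 1.13). It was 0.564 (0.327 to 0.951) for replicate 1 alone and 0.939 (0.595 to 1.48) for replicate 2 alone, so the value rests on replicate 1. The sum of the 3 Egln transcripts was 37.7 FPKM in WT and 29.7 and 31.9 FPKM in DF508, and the alpha subunit sum exceeded it by 4.74-fold, 3.99-fold and 3.77-fold.

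Hif1an (gene ID 319594), the asparaginyl hydroxylase also called FIH, was the only member with a ratio that was above WT in both DF508 libraries. Its counts were 159 in WT and 164 and 175 in DF508, or 30.0, 31.3 and 33.4 CPM. The ratio of 1.08 had a counting interval of 0.889 to 1.31, so the libraries were not distinguishable at this depth. Vhl (gene ID 22346), the substrate-binding subunit of the ligase that removes hydroxylated alpha subunits, had 106, 92 and 100 counts, or 20.0, 17.6 and 19.1 CPM. Its ratio of 0.915 (0.718 to 1.17) was likewise not distinguishable from 1. The interval for Vhl overlaps that for Egln1 (0.606 to 0.819). Whether the ratios of Vhl and Egln1 differ was not tested.

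**Figure D3:**
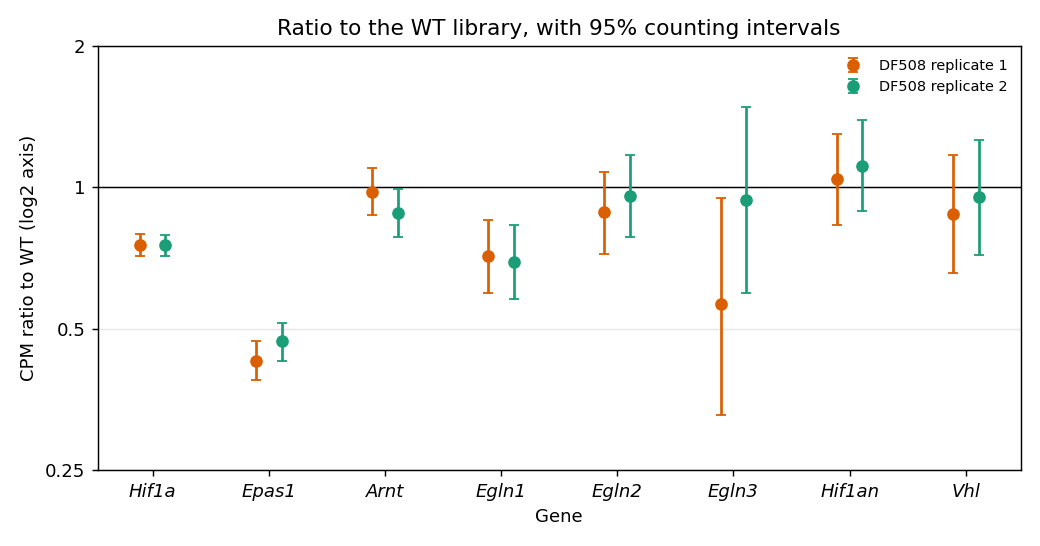
Ratio of CPM in each DF508 library to the WT library (log2 axis) for the 8 genes with a ratio; points are single libraries and bars are exact 95% counting intervals. Both libraries lie below 1 with their whole bars for Epas1, Hif1a and Egln1, while bars reach 1 in at least 1 library for the other 5 genes.

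Across the 8 members with a ratio, 7 were below WT in both DF508 libraries and 1 was above. Over all 12888 genes tested, 29.6% were below WT in both DF508 libraries and 43.3% were above. The members were chosen on this same contrast, so nothing is read from their count. The median log2 ratio was -0.27 over the 8 members and 0.05 over all genes tested. The counting interval of the ratio lay wholly below 1 for 3 members, Epas1, Hif1a and Egln1. The share of all genes with such an interval was not computed, so nothing is read from that number either. For none of the 8 did the DF508 libraries differ from each other beyond counting error.

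By the distance between pairs of log2 ratios to WT, over 3 libraries, the genes most like Epas1 were Fibin (-1.28 and -1.11), the ATP-gated channel gene P2rx7 (-1.28 and -1.19) and the chemokine gene Cxcl5 (-1.20 and -1.21), against -1.23 and -1.09 for Epas1. Cxcl5 shares reads with another gene or copy. For Hif1a the nearest were Zfp647, Il18bp and Crebrf, at -0.40 and -0.40 for the first and second of these and -0.39 and -0.42 for the third. Likeness over 3 libraries separates few genes at this size of change: 164 of 10951 genes lay within 0.1 log2 units of Hif1a, and 1 lay that near Epas1.

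Markers of other cell types were summed in each library. Of 9 endothelial markers, 5 including Pecam1 and Cdh5 were at 0 in every library, and the rest summed to 15.1 CPM in WT and to 13.4 and 13.2 CPM in DF508, nearly all of it Tek. All 10 myeloid markers were detected in each library and summed to 86.8, 136 and 632 CPM. The sum was above WT in both DF508 libraries, and by far the most in replicate 2. Pericyte markers summed to 522, 507 and 473 CPM, mostly Pdgfrb (477, 442 and 419 CPM), and the other 5 detected ones together to 44.6, 64.6 and 54.0 CPM. All 9 tendon fibroblast markers were detected in each library, at 42177, 43752 and 45703 CPM in sum. Single tendon markers went both ways. Scx, Mkx and Thbs4 were below WT in both DF508 libraries, Tnmd, Col1a1, Col1a2, Dcn and Tnc were above, and Fmod was split. Red cell and epithelial markers summed to under 1 CPM in each library, and the adipocyte markers to 9.06, 6.3 and 8.39 CPM, with Adipoq at 0. The part of changed cell make-up in the members' ratios was not tested, and in bulk RNA fewer expressing cells and less RNA per cell cannot be told apart.

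The rest of the pathway was described with edgeR's quasi-likelihood test, fitted over all genes and all 3 libraries with genotype as its one term. In that fit 1.39% of 12888 genes were called in either direction at an adjusted p under 0.05, 0.9% lower and 0.489% higher in DF508. Its single residual degree of freedom comes from the DF508 pair, and WT is assumed to vary like that pair. The lists were written with earlier results of these data known, and some of their genes stand in more than 1 list.

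The 2 lists of components that act with the members on the HIF protein held no call. Over all genes tested 1.39% were called in either direction, so lists this short are not set apart by having none. Of 21 tested genes of the Vhl ligase and of HIF ubiquitin handling none passed, with a median log2 fold change of 0.00. The ubiquitin-activating enzyme gene Uba1, which shares reads, had 423, 417 and 426 CPM (adjusted p = 0.898), and Os9 had 284, 261 and 288 CPM (adjusted p = 0.812). Of 25 HIF coactivators and modulators none passed either (median -0.01; 0.03 without DF508 replicate 1 and -0.04 without replicate 2). Pkm, the pyruvate kinase gene, had 1707, 1363 and 1332 CPM (adjusted p = 0.0709), and the chaperone gene Hsp90ab1, which shares reads, had 1270, 1336 and 1413 CPM (adjusted p = 0.825). In this fit 2 genes of the ligase list and 4 of the coactivator list had an unadjusted p under 0.05, as did 0 and 1 in DESeq2's Wald test. Of all 12888 genes tested, 1538 had such a p in this fit and 409 in DESeq2's Wald test.

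Of 15 HIF partners and relatives with the same bHLH-PAS domains, 1 fell and none rose (median -0.06; 0.00 without DF508 replicate 1 and -0.03 without replicate 2). This was Npas2, a transcription factor of the circadian clock, with 20.8 CPM in WT and 8.39 and 5.91 CPM in DF508 (2.99-fold lower, or -1.58 ± 0.28 (SE) as log2, with an adjusted p of 0.0348). Of 29 other oxygen-dependent dioxygenases, which are mostly enzymes of the same cofactor class as the Egln proteins, 1 fell and none rose (median -0.07; -0.15 without DF508 replicate 1 and -0.02 without replicate 2). This was P4ha2, which hydroxylates prolines in collagen, with 104 CPM in WT and 72.7 and 62.9 CPM in DF508 (1.58-fold lower, adjusted p = 0.0429). P4ha2 also stands in the HIF target list of survival, autophagy and feedback, and is counted among the calls of both lists. Neither gene passed with DESeq2's Wald test (adjusted p = 0.516 and 0.566). These single calls were 6.67% of the partner list and 3.45% of the dioxygenase list, against 0.9% called lower over all genes tested. With 1 call each, lists this short are not set apart.

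The calls among known HIF target genes were all lower in DF508. Since these lists were written with earlier results of these data known, their counts are a description only. Over 3 target lists with 77 different tested genes, 17 fell (22.1%), none rose and 60 did not pass. Of all genes tested, 0.9% were called lower and 0.489% higher. The median log2 fold change was -0.34 over the targets and 0.01 over all genes tested. In both DF508 libraries 48 of the 77 (62.3%) lay below WT and 13 above, against 29.6% below and 43.3% above over all genes tested. Under DESeq2's Wald test 5 of the genes in all lists passed, and none did in edgeR when low counts were kept or in limma on log2(FPKM + 1), where 30 and 29 of the target genes had an unadjusted p under 0.05. Over all genes, 1123 and 1203 had such a p in the same fits.

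Of 25 targets in glycolysis and metabolism 7 fell (28%; median -0.36). The glycolysis regulator Pfkfb3 had 27.7 CPM in WT and 13.4 and 12.6 in DF508 (2.2-fold lower, adjusted p = 0.0404), and the lactate exporter Slc16a3 had 60.8, 35.5 and 33.5 CPM (1.82-fold lower, adjusted p = 0.0222). The glycolytic kinase Pgk1 had 366, 214 and 213 CPM (1.77-fold lower, adjusted p = 0.00937). Pdk1, which keeps pyruvate out of mitochondria, had 69.1, 39.9 and 41.2 CPM (1.76-fold lower, adjusted p = 0.0208). Pfkfb3 and Pdk1 share reads.

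Of 21 targets in survival, autophagy and feedback 5 fell (23.8%; median -0.42). The mitophagy receptor Bnip3 had 129 CPM in WT and 57.2 and 70.5 in DF508 (2.08-fold lower, adjusted p = 0.0111), and the cytokine Mif had 210, 125 and 120 CPM (1.77-fold lower, adjusted p = 0.0111). The early-response gene Ier3 was 1.76-fold lower (adjusted p = 0.0206) and the transcriptional repressor Bhlhe40 1.64-fold lower (adjusted p = 0.0198). In each of these 4 genes both DF508 libraries lay below WT.

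Of 31 targets in vessels, matrix, iron and oxygen supply 5 fell (16.1%; median -0.03, and -0.11 without DF508 replicate 2). The peptide ligand Apln had 45.1 CPM in WT and 21.9 and 25.2 in DF508 (1.97-fold lower, adjusted p = 0.0333), and Angptl4, an inhibitor of lipoprotein lipase, had 58.9, 32.8 and 33.9 CPM (1.82-fold lower, adjusted p = 0.0224). The membrane collagenase Mmp14 had 636, 396 and 394 CPM (1.66-fold lower, adjusted p = 0.0111). The angiogenic growth factor Vegfa had 125, 84.8 and 87.1 CPM (1.5-fold lower, adjusted p = 0.0382). Mmp14 and Vegfa share reads. With DESeq2's Wald test Pgk1, Bnip3, Mif and Mmp14 passed among the genes named under the 3 target lists, and the other 8 did not.

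**Figure D4:**
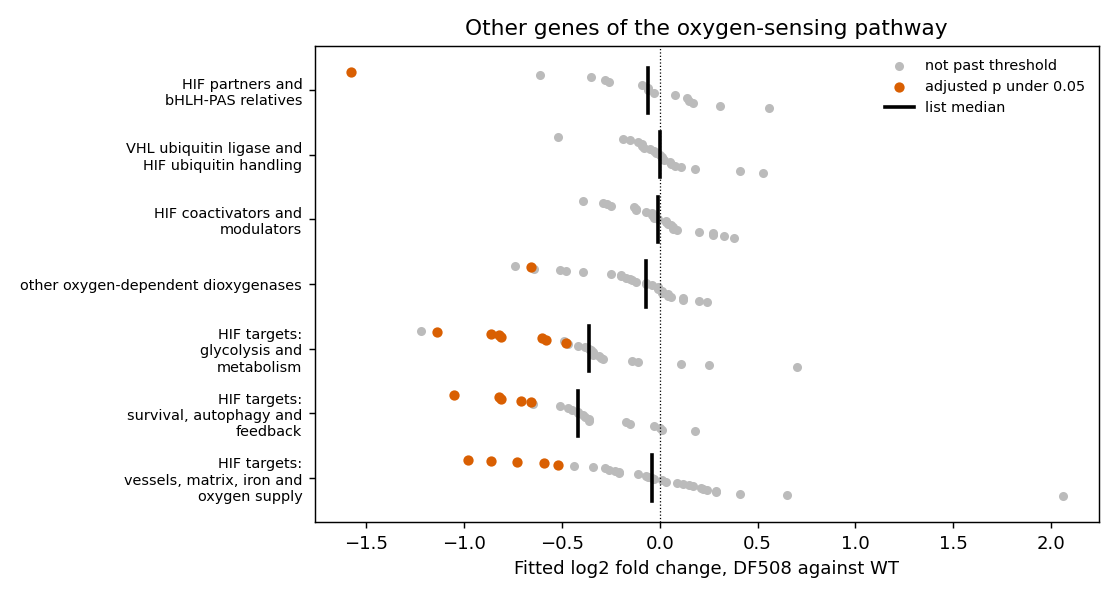
Fitted log2 fold change of DF508 against WT (x axis) for each tested gene of the pathway lists, without the 9 members; orange points passed at an adjusted p under 0.05, grey points did not, and black bars are list medians. Of 77 different target genes 17 are called, all to the left of 0, and the ligase and coactivator lists have no call.

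The promoter windows of the members were searched for the HIF core motifs, since Egln1 and Egln3 are known HIF targets. Windows ran from 250 bases before to 50 after each RefSeq start (GRCm38.p6), and 8 of the 9 members matched, Egln2 with 2 windows; Epas1 was not among them. The motifs were ACGTG and GCGTG, on both strands, with a palindromic overlap counted on each strand. At least 1 of the cores was in 43.8% of all 32851 windows (ACGTG in 19.6% and GCGTG in 32.4%). Of the 8 matched members 6 held a core, and Hif1an and Vhl held none. The windows of the 2 matched members that were lower in both DF508 libraries beyond counting error, Hif1a and Egln1, and that of Egln3 held the following sites, with the core in capitals and the overlapping antisense copy in Hif1a not repeated.
Hif1a, first core base 134 bases before the start, chr12:73907721-73907749, plus strand: acacagacaagcACGTGagcggggcagct
Hif1a, 70 bases before, chr12:73907785-73907813, plus strand: tggctgagagcaACGTGggctggggtggg
Egln1, 126 bases before, chr8:124949364-124949392, minus strand: gcccggcccgccGCGTGcgcgcggccccc
Egln1, 68 bases before, chr8:124949306-124949334, minus strand: gggccgtggtgtACGTGcagcgcgcgcgg
Egln3, 229 bases before, chr12:54204087-54204115, minus strand: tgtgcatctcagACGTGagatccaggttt
Egln2, whose level differed little, had the most cores, with 6 in its first window and 1 in its second. The window of Hif3a held 2 cores and that of Arnt held 1. A core is a short letter match and not evidence of binding, and whether HIF acts on the members was not tested.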

How the data were processed

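Poly(A) RNA of 1 WT and 2 DF508 libraries was compared. Reads were aligned and quantified with Bowtie and RSEM on mm9, per the submitters' processing notes; versions, the annotation release and strand use: not given in the sources used here. Per the file headers, the authors' tables hold expected counts, which are not normalized, FPKM values and gene lengths, with 1 table per library. Genes missing from a table were set to 0, and gene IDs were named with a RefSeq table of GRCm38.p6 (16579 of 16621 matched).

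Totals were 5298326, 5241826 and 5246886 estimated counts in WT and DF508 replicates 1 and 2. A count of 0 allows 3 counts, or 0.566 to 0.572 CPM. Without molecular identifiers in the protocol, intervals cover counting error only. Of all genes, 22.3% have an estimate that is not whole within 0.005 in at least 1 library; these share reads. In GENCODE M21 the spans of Hif1a, Epas1, Hif3a, Arnt and Egln2 overlap other genes, on either strand; of these the tables list only Cyp2t4, opposite Egln2, and without strand their reads cannot be told apart.

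Member CPM values are on library totals and all fold changes with a p come from the fit. Expected counts were rounded and fitted with edgeR 4.0.16 (TMM, filterByExpr, quasi-likelihood F test, 1 residual and 7.72 prior degrees of freedom, Benjamini-Hochberg over 12888 genes, threshold 0.05); the SE is the log2 fold change over the root of F. The fit was tested on simulated data. Alternatives used DESeq2 1.42.0, limma 3.58.1 and R 4.3.3. Named were all members; of each of 7 pathway lists up to 4 called genes averaging 5 CPM or more, by fold, or 2 by level where none passed; and the 3 genes nearest in pattern to Epas1 and to Hif1a. Members, lists and this rule were chosen with earlier results of these data known.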

Additional observations from a re-analysis of the deposited data

How the results depend on the processing

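With 1 WT library nothing shows how WT cultures vary, and counting intervals do not cover it. No paired analysis was possible because there is only 1 WT library. Each of the 8 member ratios kept its direction under every scaling and without either DF508 library. On the log2 scale, Hif1a went from -0.41 to -0.45 with TMM and with DESeq2 size factors and to -0.43 with upper-quartile factors, and Egln1 from -0.51 to -0.55 with TMM and with DESeq2 size factors, shifts larger than the SD of the DF508 pair. Without 1 DF508 library the log2 ratios ranged from -1.23 to -1.09 for Epas1, -0.41 to -0.40 for Hif1a, -0.52 to -0.49 for Egln1, -0.83 to -0.09 for Egln3, -0.18 to -0.03 for Arnt, -0.18 to -0.06 for Egln2, -0.19 to -0.07 for Vhl and 0.06 to 0.15 for Hif1an. The median over HIF targets was -0.24 on log2(FPKM + 1), and -0.31 to -0.30 without 1 DF508 library. Of all genes, 116 were called lower and 63 higher; DESeq2's Wald test called 41 and 22, and edgeR without a filter, limma on log2(FPKM + 1) and limma on log2(FPKM + 0.1) called 0 and 0, where 1123, 1203 and 1239 genes had an unadjusted p below 0.05. Of genes in the pathway lists 18 were called lower, against 5 with DESeq2's Wald test and 0 in the same 3 fits; the cause was not tested.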
